A study of Mus musculus with 8 samples.

Results

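The genes described here encode the subunits of RNA polymerases I, II and III and of Mediator, measured in the striatum of adult male mice heterozygous for a gene trap in Brd2 and of their wildtype counterparts. Members were all array probes, control spots left out, whose gene name began with Polr1, Polr2 or Polr3 or consisted of Med, a number and an optional letter. This gave 58 genes of 30175 gene and transcript names on the array, read by 95 of 39429 probes on 104 spots. Of these probes, 14 fell to RNA polymerase II (8 genes), 15 to RNA polymerase III (10 genes), 6 to RNA polymerase I (3 genes), 11 to subunits shared between polymerases (7 genes) and 49 to Mediator (30 genes). The series profiled 4 males labelled heterozygous (Brd2+/-) and 4 labelled wildtype, all C57Bl/6j with a background given as 99%. They were offspring of matings between heterozygotes at backcross generation 7. Mice were genotyped by PCR over the junction of the trap, and the striatum was dissected after removal of the frontal cortex. Each of 4 arrays carried 2 mice of the same genotype, 1 in Cy3 and 1 in Cy5, so that a genotype was measured on 2 arrays.

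RNA polymerase I transcribes the ribosomal RNA precursor, RNA polymerase II transcribes messenger RNAs, and RNA polymerase III transcribes transfer RNAs, the 5S ribosomal RNA and other small RNAs. Each enzyme has its own pair of large catalytic subunits, a set of subunits of its own and a set that it shares with the others. Mediator is a large complex that passes signals from DNA-bound activators to RNA polymerase II. It is built from head, middle and tail modules around the scaffold Med14, with a kinase module that binds reversibly. Brd2, a member of the BET family, binds acetylated histones on chromatin and acts in transcription by RNA polymerase II.

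The array reads each gene through probes of 60 bases, and several results below turn on which probe of a gene is read. The sequences that follow, from the deposited scanner files, show these probes, with mm9 coordinates per the file headers and 30 of the 60 bases of each. The pairs of Polr1e and Polr2e are shown because the probes of Polr1e gave different results and those of Polr2e gave a like one. The pair of Polr2h is shown because its probes map to overlapping places, with the bases that differ in capitals. They differed at 10 of 60 bases, of which 9 lie in the stretch printed. Polr2a is shown by its end, with the stop triplet of the reading frame in capitals, and Med23 by a probe that holds the letters AATAAA, the usual signal for polyadenylation, in capitals.
Polr1e, A_51_P209302, bases 1 to 30, chr4:45044931-45044990, plus strand: cagaactctgatcgacagtcaaagcggagg
Polr1e, A_55_P2159949, bases 1 to 30, chr4:45044310-45044369, plus strand: taaataacttccaggttgacctgacagcgt
Polr2e, A_52_P362033, bases 1 to 30, chr10:79499707-79499980, minus strand: gaacagtttctacagcaggagctgctcatc
Polr2e, A_66_P119680, bases 1 to 30, chr10:79498698-79498754, minus strand: gttcagagttctccattctcgaaggactct
Polr2h, A_55_P1966337, bases 1 to 30, chr16:20722258-20722317, plus strand: CCCTCTCGGaaggccgagagggagaactta
Polr2h, A_55_P1993544, bases 1 to 30, chr16:20722256-20722314, plus strand: TGTCTGTAAaaggccgagagggagaactta
Polr2a, A_55_P1996998, bases 31 to 60, chr11:69547912-69547971, minus strand: agcccagatgacagcgatgaggagaacTGA
Med23, A_55_P1986902, bases 31 to 60, chr10:24633206-24633265, plus strand: aaatgaAATAAAgccgtgctcagacgtctg

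The letters AATAAA, on the strand of the probe, were in 10 of the 95 member probes (10.5%) and in 12.6% of all probes, and on the opposite strand in 6 of them (6.32%) and in 4.03% of all. The GC content of member probes ran from 26.7% to 60%, with a median of 43.3%. No member probe shared its whole sequence with another, and 9 covered more than 60 bases of the genome, as Polr2e A_52_P362033 did.

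A sample's level is given below on the log2 scale after background correction and normalization, and levels of different probes are not set against each other. Of the 95 probes, 73 stood well above background in every sample and 6 in no sample. For the test, 9 were too dim (well above background in fewer than 4 samples) and 18 had a spot with an outlier flag, which left 68 probes of 49 genes. Genes of the striatum were present, with 10 of 10 markers of its projection neurons well above background in each sample, whereas of 7 genes of atrial heart muscle, the tissue that the free description of the labels names, 1 was so in all 8 and 2 in none. The summed markers of oligodendrocytes lay between 17.03 and 17.55 log2 units in samples labelled heterozygous and between 16.32 and 16.70 in wildtype samples, without overlap. Those of striatal projection neurons lay at 18.22 to 18.72 in samples labelled heterozygous and at 17.03 to 18.20 in wildtype samples. Single markers varied: Penk lay at 16.29 to 16.85 and 14.90 to 16.23, Bcl11b at 12.89 to 13.15 and 12.51 to 13.73. Wildtype replicate 4 was the lowest at both. The atrial sum lay at 10.03 to 10.50 in samples labelled heterozygous and at 10.54 to 12.20 in wildtype samples. Its Myl4 (7.88 to 9.43 and 9.33 to 11.95) and Tnnt2 (7.53 to 8.55 and 7.79 to 8.09) overlapped. Myl4 was highest in wildtype replicate 1, as was each cortical marker. Sln, well above background in 2 wildtype samples alone, reached 10.26 in wildtype replicate 4. The ranges of the 2 genotypes overlapped for cortical markers (10.08 to 11.45 in samples labelled heterozygous, 11.01 to 13.94 in wildtype samples) and for choroid plexus markers (12.67 to 17.28 in samples labelled heterozygous, 10.36 to 17.43 in wildtype samples). The part of these differences in the results below was not tested, and in bulk tissue fewer cells of a type and less RNA per cell cannot be told apart. Between 41.6% (heterozygous replicate 3) and 63.1% (heterozygous replicate 2) of all probes were well above background in a sample, and none was saturated.

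The targeted gene gave no lower signal in mice labelled heterozygous. Brd2 read 11.82, 11.67, 11.77 and 11.72 in the samples labelled heterozygous and 11.05, 10.76, 12.01 and 12.02 in wildtype samples at its brighter probe. At its other probe it read 7.75, 8.07, 8.05 and 8.17 in the samples labelled heterozygous and 7.39, 7.31, 6.91 and 6.90 in wildtype samples. The groups overlapped at the brighter probe (difference 0.29, SE 0.35). At the other probe the samples labelled heterozygous were higher without overlap (difference 0.88, SE 0.28, unadjusted p = 0.01255 and adjusted p = 0.499 in limma). The labels do not place either probe relative to the trap, so all directions rest on the genotype labels.

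No polymerase or Mediator probe passed the test of the genotypes. In limma, fitted over all 18399 probes with a term for dye and with the mice of an array treated as correlated, the lowest adjusted p of a member was 0.437 and 0 members were called, as was 0% of all probes. At an unadjusted p under 0.05 there were 6 of 68 members, or 8.82%, where 7.96% of all probes tested (1464) reached it. Of the 6, 2 were above 0 (higher in the samples labelled heterozygous, background 3.88%) and 4 below (background 4.08%), so the members stood near the background of the array. Over all 68 probes, 37 were above 0 and 31 below, with a median difference of 0.016, and over all probes 48% were above 0 with a median of −0.018. A difference over 0.5 in either direction was found in 16 members and in 22.1% of all probes. The groups did not overlap in 9 members, 3 higher (background 8.01%) and 6 lower (background 8.91%), where 16.9% of all probes did not overlap. The count of 6 changed when single samples were left out, and so did the share of all probes. It was 3 without heterozygous replicate 1, 2 or 4 or without wildtype replicate 3, where 5.77% to 6.57% of all probes reached it. It was 2 without wildtype replicate 2 (6.86% of all) and 4 without wildtype replicate 4 (7.17%). It stayed at 6 without heterozygous replicate 3 (6.42%) and was 8 without wildtype replicate 1 (6.96%).

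**Figure D1:**
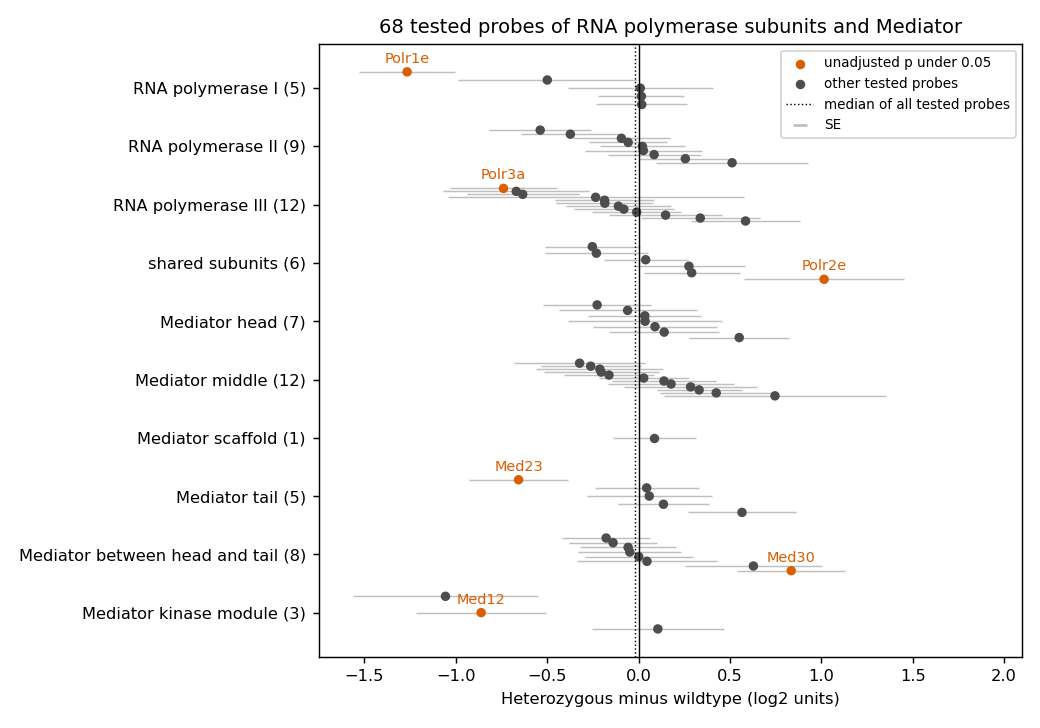
Fitted difference, heterozygous minus wildtype in log2 units (horizontal axis), of the 68 tested probes by complex and Mediator module, with the number of probes in brackets, bars for the SE and a dotted line at the median of all tested probes (−0.018). Most probes lie within 0.5 of 0, and the 6 at an unadjusted p under 0.05 are named.

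RNA polymerase I was read by 5 tested probes of 3 genes, with 3 slightly above 0, at most at 0.018, and 2 below it. Polr1e, which encodes the counterpart of yeast Rpa49, a subunit specific to polymerase I that aids elongation, had the lowest p of all members. Its probe A_51_P209302 read 7.79, 7.69, 7.69 and 7.85 in the samples labelled heterozygous and 8.86, 8.91, 9.01 and 9.30 in wildtype samples. All 4 values labelled heterozygous lay below all wildtype values, and the gap between the arrays of a genotype was at most 0.27. The difference was −1.27 (SE 0.26, 95% interval −1.86 to −0.68, unadjusted p = 0.00090 and adjusted p = 0.437 in limma), a ratio of 0.416. It was −1.20 between the Cy3 samples and −1.33 between the Cy5 samples.

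The other Polr1e probe, A_55_P2159949, lies in the same gene a short way upstream and showed no such gap. It read 8.36, 8.36, 7.95 and 8.17 in the samples labelled heterozygous and 8.32, 8.35, 7.97 and 8.13 in wildtype samples, a difference of 0.018 (SE 0.25, 95% interval −0.55 to 0.58). The same array order was seen in both genotypes and the groups covered the same range. For each Polr1e probe, 3 samples labelled heterozygous and all 4 wildtype samples were well above background. No annotation of mm9 was used, so exon and transcript of either probe are not given.

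The catalytic subunits of polymerase I did not differ beyond their spread. Polr1a, the largest subunit, read 9.79, 9.61, 9.79 and 9.57 in the samples labelled heterozygous and 9.78, 9.80, 9.65 and 9.47 in wildtype samples at its brightest probe, a difference of 0.015 (SE 0.24). Its other tested probe read 7.78, 7.59, 7.56 and 7.30 in the samples labelled heterozygous and 7.16, 7.31, 8.78 and 8.98 in wildtype samples. There the wildtype arrays were 1.64 apart and the groups overlapped (difference −0.50, SE 0.49). Polr1b, the second largest subunit, read 8.32, 8.42, 9.53 and 9.66 in the samples labelled heterozygous and 9.15, 8.87, 9.0 and 8.88 in wildtype samples. Here the 2 arrays labelled heterozygous were 1.22 apart, on either side of the wildtype values, and the difference was 0.0097 (SE 0.40).

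Of the genes counted to RNA polymerase II alone, which include Polr2m by its name, 9 probes of 5 genes were tested. Of these probes, 5 were above and 4 below 0, with a median of 0.021 and a range of −0.54 to 0.51. None reached an unadjusted p of 0.05. Polr2a, the largest subunit, whose carboxy-terminal repeats are phosphorylated during the transcription cycle, had the smallest SE of all members. It read 9.19, 9.41, 9.16 and 9.37 in the samples labelled heterozygous and 9.15, 9.36, 9.32 and 9.54 in wildtype samples. The difference was −0.057 (SE 0.21), and its 95% interval of −0.54 to 0.42 leaves room for a change of that size in either direction. Polr2b, the second largest subunit, was left out of the test for outlier spots and read 10.71, 10.43, 10.82 and 11.04 in the samples labelled heterozygous, against 11.02, 10.86, 11.36 and 11.22 in wildtype samples. Its groups overlapped.

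Polr2c, a subunit of the assembly platform of the enzyme, had 3 tested probes with differences of −0.54, −0.37 and 0.26. The lowest of them, A_55_P2096823, read 8.98, 8.81, 9.31 and 9.07 in the samples labelled heterozygous and 9.36, 9.52, 9.79 and 9.66 in wildtype samples, without overlap (SE 0.28, unadjusted p = 0.0862 in limma). Polr2i, a small subunit with a role in accuracy in yeast, had differences of −0.094, 0.021 and 0.51 at its 3 tested probes. Probe A_55_P1984837, at −0.094, read 8.08, 8.25, 8.27 and 8.01 in the samples labelled heterozygous and 8.34, 8.29, 8.25 and 8.11 in wildtype samples. Polr2m, which encodes a protein that binds the enzyme and is no core subunit, read 14.08, 13.83, 13.95 and 14.08 in the samples labelled heterozygous and 13.87, 13.64, 14.03 and 14.29 in wildtype samples (difference 0.027, SE 0.32). Polr2d, which forms a stalk with Polr2g, stood at 0.085 (SE 0.25).

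Polr2e, a subunit of all 3 nuclear polymerases, read higher at its tested probe, where 1 wildtype array lay apart. Probe A_52_P362033 read 11.22, 11.30, 11.13 and 11.35 in the samples labelled heterozygous and 11, 10.94, 9.61 and 9.39 in wildtype samples. The groups did not overlap, and wildtype replicates 3 and 4 lay 1.47 below the other wildtype array. The difference was 1.02 (SE 0.44, unadjusted p = 0.0453 and adjusted p = 0.617 in limma), a ratio of 2.02. Without the array of wildtype replicates 3 and 4 it was 0.28, and without that of wildtype replicates 1 and 2 it was 1.75. With the scanner's processed signals, in which the median of all probes shifted to −0.53, it was −0.11, or 0.42 relative to that shift.

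The other Polr2e probe, A_66_P119680, had outlier spots and was left out of the test. It read 12.24, 12.16, 12.71 and 12.54 in the samples labelled heterozygous and 11.93, 11.80, 11.16 and 10.92 in wildtype samples, and again wildtype replicates 3 and 4 were the lowest. With outlier spots kept, the difference was 0.96 (SE 0.31, unadjusted p = 0.0133 and adjusted p = 0.420 in limma).

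The remaining shared subunits had tested probes on both sides of 0, and all their probes with outlier spots lay above it. Polr1c and Polr1d, which polymerases I and III share, stood at 0.039 (SE 0.23) and 0.29 (SE 0.26). Polr2l read 11.76, 11.55, 11.84 and 11.72 in the samples labelled heterozygous and 12.03, 12.07, 11.81 and 11.97 in wildtype samples (difference −0.25, SE 0.26). With outlier spots kept, the other probes of Polr2l and Polr1d stood at 0.69 (SE 0.43) and 0.59 (SE 0.33), Polr2k at 0.52 (SE 0.33) and Polr2f at 0.035 (SE 0.37). At the Polr2h probes that overlap in the genome, A_55_P1966337 stood at 0.28 (SE 0.31) and A_55_P1993544 at −0.23 (SE 0.28). The second of them read 7.70, 7.31, 7.5 and 7.43 in the samples labelled heterozygous and 7.77, 7.29, 8.12 and 7.68 in wildtype samples. Over the 6 tested probes of shared subunits, 4 were above and 2 below 0, with a median of 0.16. This median was 0.015 relative to the shift of all probes with the scanner's processed signals and 0.0226 once the array carrying wildtype replicates 3 and 4 was left out, and it was 0.276 with 1 probe per gene and 0.291 over 11 probes with outlier spots kept.

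RNA polymerase III had most of its probes below 0, with 9 of 12 below and 3 above and a median of −0.15, where the median of all probes was −0.018. The median was −0.0805 over the 7 probes well above background in every sample and −0.0954 with 1 probe per gene. Leaving out an array gave −0.0868 (wildtype replicates 1 and 2) to −0.238 (wildtype replicates 3 and 4). Of the 12, 1 reached an unadjusted p of 0.05 (8.33%, against 7.96% of all probes). This was Polr3a, the largest subunit, which holds the active site. It read 8.52, 8.65, 9.34 and 9.41 in the samples labelled heterozygous and 9.62, 9.89, 9.66 and 9.70 in wildtype samples. All values labelled heterozygous lay below all wildtype values, and replicates 1 and 2 labelled heterozygous, which shared an array, lay 0.79 below replicates 3 and 4. The difference was −0.74 (SE 0.30, 95% interval −1.41 to −0.072, unadjusted p = 0.0336 and adjusted p = 0.595 in limma), a ratio of 0.599. Without the array of heterozygous replicates 1 and 2 it was −0.34.

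Polr3b, the other large catalytic subunit, read 8.54, 8.80, 8.71 and 8.79 in the samples labelled heterozygous and 8.59, 8.56, 8.82 and 8.93 in wildtype samples, a difference of −0.011 (SE 0.25). Polr3c, which forms a subcomplex with Polr3f and Polr3g needed at initiation, read 8.83, 8.65, 9.30 and 9.52 in the samples labelled heterozygous and 9.69, 9.65, 9.69 and 9.81 in wildtype samples. Its groups did not overlap either, and the same array labelled heterozygous was the lowest, as for Polr3a (difference −0.63, SE 0.31, unadjusted p = 0.0678 in limma). Polr3f, its partner, went the other way at 0.59 (SE 0.30, unadjusted p = 0.0821). Polr3g and its paralog Polr3gl, which take the same place in alternative forms of the enzyme, stood at −0.19 for Polr3g and at −0.67 and −0.18 for the probes of Polr3gl.

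**Figure D2:**
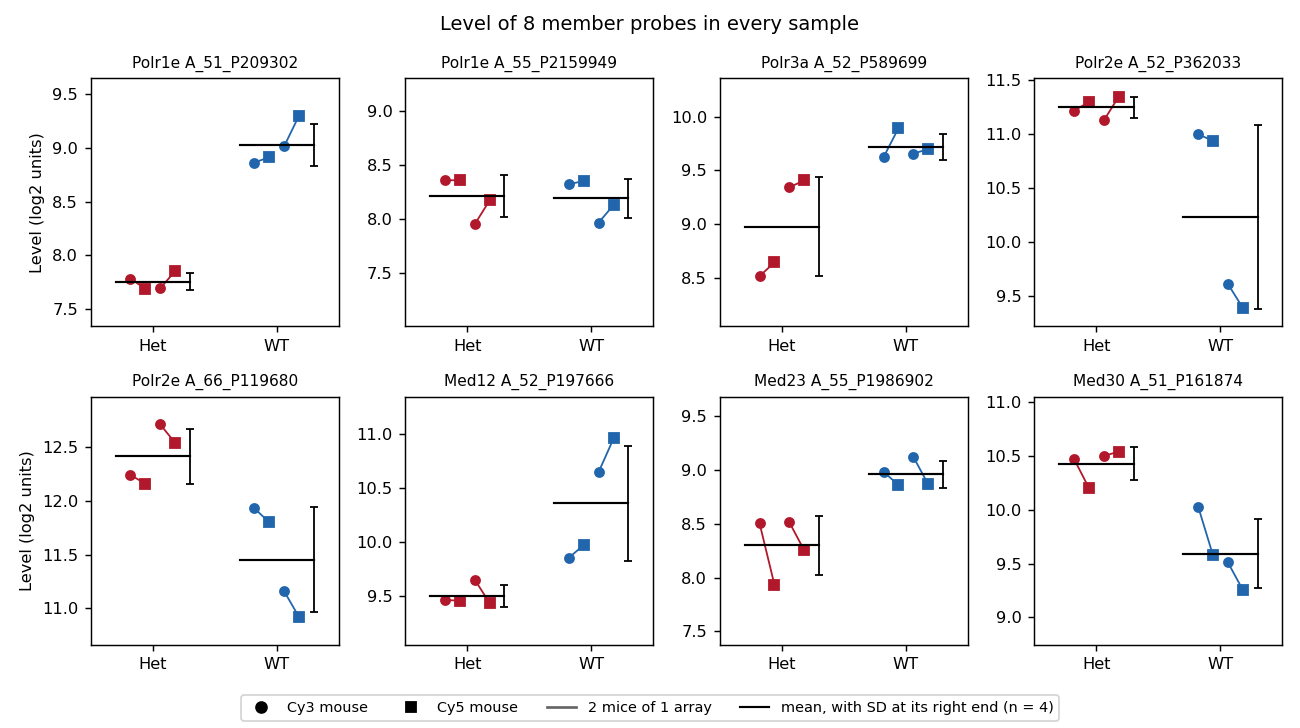
Level in log2 units (vertical axis, the same span in each panel) of 8 member probes in every sample, heterozygous (Het, red) left of wildtype (WT, blue). Circles are Cy3 mice and squares Cy5 mice, a line joins the 2 mice of an array, and a black bar marks the mean with its SD (n = 4). Polr1e A_51_P209302 separates the genotypes and A_55_P2159949 does not, and in both Polr2e probes 1 wildtype array lies apart.

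Mediator had 36 tested probes of 26 genes, 22 above and 14 below 0, with a median of 0.040. Of these, 3 reached an unadjusted p of 0.05 (8.33%, against 7.96% of all probes), 1 above 0 and 2 below. Med30, a subunit of metazoan Mediator placed between head and tail, was the higher one. It read 10.47, 10.20, 10.50 and 10.54 in the samples labelled heterozygous and 10.03, 9.58, 9.51 and 9.26 in wildtype samples, without overlap. The difference was 0.84 (SE 0.30, 95% interval 0.17 to 1.5, unadjusted p = 0.0196 and adjusted p = 0.528 in limma), a ratio of 1.78. With the scanner's processed signals it was 0.036, or 0.56 relative to the shift of all probes. Of the other genes of that position, Med27, Med28 and Med29, 7 probes were tested, and 6 of them lay between −0.18 and 0.046. The seventh was 1 of the 2 probes of Med27, at 0.63, whose wildtype arrays lay 1.04 apart.

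Med23, a tail subunit that receives signals from activators such as Elk1, read 8.5, 7.93, 8.51 and 8.25 in the samples labelled heterozygous and 8.98, 8.86, 9.12 and 8.87 in wildtype samples. All values labelled heterozygous lay below all wildtype values, and the arrays of a genotype differed by at most 0.16 (difference −0.66, SE 0.27, unadjusted p = 0.0386 and adjusted p = 0.606 in limma). The other tested tail probes stood above 0, with Med15 at 0.57 (SE 0.29), Med24 at 0.14, and Med16 at 0.044 and 0.059. The brightest Med16 probe read 16.59, 16.26, 16.48 and 15.94 in the samples labelled heterozygous and 16.06, 15.90, 16.49 and 16.57 in wildtype samples.

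In the kinase module, Med12, which activates the kinase Cdk8, read 9.46, 9.45, 9.65 and 9.43 in the samples labelled heterozygous and 9.85, 9.97, 10.65 and 10.96 in wildtype samples. The wildtype values were all higher, and the wildtype arrays lay 0.89 apart (difference −0.86, SE 0.36, unadjusted p = 0.0385 and adjusted p = 0.606 in limma). Without the array of wildtype replicates 3 and 4 the difference was −0.41. Med12l, the paralog of Med12, stood at −1.06 (SE 0.51, unadjusted p = 0.0659) with overlapping groups, and its wildtype replicates 3 and 4, at 9.27 and 9.17, were also the highest. Med13l, the paralog of the subunit that links the module to the core, read 6.78, 7.35, 7.68 and 7.73 in the samples labelled heterozygous and 7.48, 7.55, 7.02 and 7.07 in wildtype samples (difference 0.11, SE 0.36). The only probe of Med13 was too dim to test. The kinase and cyclin of the module lie outside the name rule, and Cdk8, its paralog Cdk19 and Ccnc stood at 0.086, 0.056 and 0.15 at their brightest probes. The other tested probes stood at 0.77 (SE 0.40) and 0.26 for Cdk8 and at −0.082 for Ccnc, and none was at an unadjusted p under 0.05.

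The tested probes of the scaffold, the head and the middle module held none at an unadjusted p under 0.05. Med14, the scaffold, read 8.34, 8.07, 8.20 and 8.08 in the samples labelled heterozygous and 8.29, 7.95, 8.21 and 7.90 in wildtype samples at its tested probe, a difference of 0.086 (SE 0.23). Its brightest probe had outlier spots and read 10.81, 10.77, 11.82 and 11.78 in the samples labelled heterozygous, against 12.39, 11.92, 12.16 and 11.83 in wildtype samples. With those spots kept, the brightest probe stood at −0.78 (SE 0.38), opposite in sign to the tested probe. Med17, the central subunit of the head, also had outlier spots and read 7.91, 8.17, 8.94 and 9.11 in the samples labelled heterozygous and 9.34, 9.53, 8.49 and 8.60 in wildtype samples. In the head, 7 tested probes ran from −0.23 to 0.55, with Med18 the highest (SE 0.27, unadjusted p = 0.0756) and without overlap of its groups. In the middle module, 12 probes ran from −0.32 to 0.75. Med1, a middle subunit that binds nuclear receptors, read 11.74, 11.70, 12.35 and 12.13 in the samples labelled heterozygous and 12.08, 12.18, 12.40 and 12.31 in wildtype samples at its brightest probe. Its 4 tested probes stood at −0.32, −0.26, 0.18 and 0.43.

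Probes of the same gene often went opposite ways. Of 14 member genes with several tested probes, 10 (71.4%) had probes of both signs, as had 51.5% of 2870 such genes over the whole array. Among genes with exactly 2 tested probes, it was 6 of 10 members (60%) and 47.7% of 2411 genes, and the median distance between the probes was 0.51 for members and 0.38 for all. Polr1e had the widest distance of the 14, at 1.28. Med4, with 2 probes 0.91 apart, had its higher value from the array of heterozygous replicates 1 and 2, which lay 2.27 above the other array labelled heterozygous. Med29, Med27, Med16 and Polr3gl had tested probes of 1 sign.

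**Figure D3:**
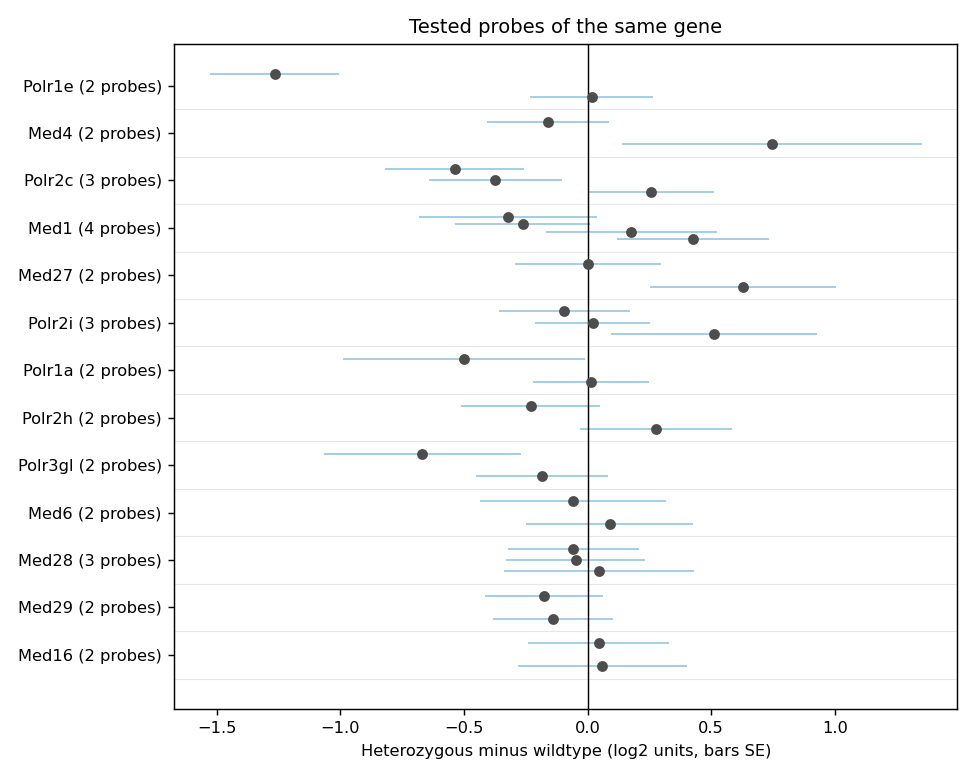
Difference, heterozygous minus wildtype in log2 units (horizontal axis), of each tested probe of member genes with several tested probes, ordered by the distance between the probes of a gene, with bars for the SE. Polr1e has the widest distance (1.28), and in most of the genes the probes lie on both sides of 0.

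Arrays of 1 genotype differed from each other as well. Over the 68 tested members, the 2 arrays of a genotype differed by a median of 0.30 (labelled heterozygous) and 0.35 (wildtype), while the genotypes differed by a median of 0.19. In 61 of 68 members (89.7%) the gap between arrays of at least 1 genotype exceeded the difference between the genotypes, as it did in 77.4% of all probes. A gap between single arrays is wider by construction than a difference of means of 2 arrays, so these counts are read only against those of all probes. The 7 exceptions were Polr1e A_51_P209302, Med30, Med23, Polr2c A_55_P2096823, Polr2l, the brighter probe of Med4 and the tested probe of Med14. Mice on the same array correlated at 0.986 to 0.989 across probes and mice on different arrays at 0.925 to 0.959, and probes are not independent replicates. The p-values count both mice of an array, although genotype varied only between arrays, and may be too small for that reason. All 4 arrays lay on 1 slide, those labelled heterozygous at positions 2 and 1 and the wildtype ones at positions 4 and 3, so position and genotype cannot be told apart.

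**Figure D4:**
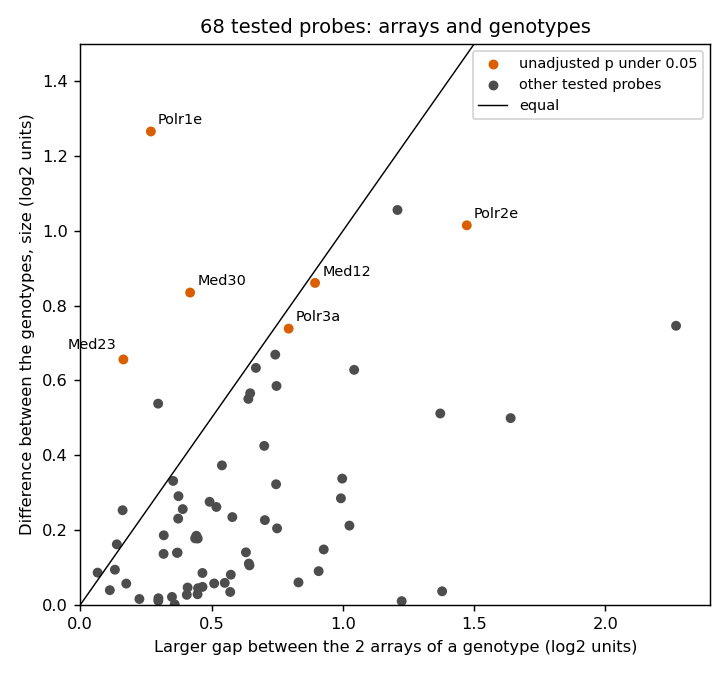
For each of the 68 tested probes, the size of the difference between the genotypes (vertical axis, log2 units) against the larger of the 2 gaps between arrays of a genotype (horizontal axis, log2 units), with a line where both are equal. The named probes are the 6 at an unadjusted p under 0.05, of which Polr1e, Med30 and Med23 lie above the line and Polr3a, Med12 and Polr2e below it.

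With the outlier spots kept, 86 members were tested, and 10 stood at an unadjusted p under 0.05 (background 8.78%). Of the 18 probes added, 13 were above 0 and 5 below, and 4 reached an unadjusted p under 0.05, all higher in the samples labelled heterozygous. Besides Polr2e these were 3 subunits of the middle module of Mediator. Med10 read 11.27, 11.18, 11.15 and 10.79 in the samples labelled heterozygous and 9.69, 9.29, 10.19 and 10.06 in wildtype samples at probe A_55_P2026889. The groups lay apart with a difference of 1.29 (SE 0.31, adjusted p = 0.302 in limma), whereas the tested probe of Med10 stood at −0.21 (SE 0.35). Med7 read 10.10, 9.93, 9.35 and 9.24 in the samples labelled heterozygous and 9.24, 9.01, 8.27 and 8.20 in wildtype samples at the added probe, a difference of 0.97, and its tested probe stood at 0.028. Med26, which recruits elongation factors, read 9.37, 9.90, 9.54 and 9.65 in the samples labelled heterozygous and 9.09, 8.98, 8.28 and 8.0 in wildtype samples, a difference of 1.03. These 3 probes carried spots that the scanner software had marked as not uniform.

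The factors that work with these enzymes were read by 1 probe per gene, the brightest of those tested. Of 34 tested general factors and assembly proteins of RNA polymerase II, 22 were above and 12 below 0, with a median of 0.081. At an unadjusted p under 0.05 there were 2, both higher, where 7.96% of all probes reached it and 3.88% did so above 0. Taf11, a subunit of TFIID, read 9.71, 9.74, 9.61 and 9.45 in the samples labelled heterozygous and 9.25, 9.03, 8.41 and 8.0 in wildtype samples, a difference of 0.95 (SE 0.35). Rpap2, a phosphatase of the carboxy-terminal repeats, stood at 0.74 (SE 0.28), but at 0.086 and 0.20 at its other probes. Taf10 stood at −0.58 (SE 0.26) at its tested probe. Its brighter probe, left out for outlier spots, had means of 13.19 in the samples labelled heterozygous and 13.16 in wildtype samples. Gtf2a2 stood at 0.46 (SE 0.22), with 0.16 at its other tested probe. A further Gtf2a2 probe, left out for outlier spots, had means of 9.69 in the samples labelled heterozygous and 9.81 in wildtype samples. Of 6 other genes of RNA polymerase I, 5 were below 0 and none reached an unadjusted p of 0.05, with Taf1d, a subunit of the selectivity factor, the lowest by p at −0.45 (SE 0.26).

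Among 16 other genes of RNA polymerase III, each at its brightest tested probe, 8 were above and 8 below 0. At an unadjusted p under 0.05 there were 2, both lower, where 7.96% of all probes reached it and 4.08% did so below 0. Gtf3c6, a subunit of the factor TFIIIC that binds the promoters of transfer RNA genes, read 9.30, 9.03, 9.76 and 9.58 in the samples labelled heterozygous and 10.24, 10.20, 10.47 and 10.31 in wildtype samples. The groups did not overlap, and the difference was −0.88 (SE 0.26, unadjusted p = 0.00757 and adjusted p = 0.480 in limma). Crcp, which encodes a stalk subunit of the enzyme, read 10.58, 10.54, 11.54 and 11.32 in the samples labelled heterozygous and 11.82, 11.75, 11.64 and 11.57 in wildtype samples (difference −0.70, SE 0.30). As for Polr3a and Polr3c, the lowest values came from the array of heterozygous replicates 1 and 2. Gtf3c5, another TFIIIC subunit, stood at −0.0065 (SE 0.29) at its brightest probe and at −0.89 (SE 0.30, unadjusted p = 0.0162 in limma) at its other. Brf1, a subunit of the initiation factor TFIIIB, stood at −0.53 (SE 0.40) and Gtf3c2 at −0.34 (SE 0.31) and, at its other probe, −0.071. Polrmt, the mitochondrial RNA polymerase, stood at 0.37 (SE 0.27).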

How the data were processed

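The deposited scanner files hold the mean signal intensity and the median local background intensity of each spot and channel, read by Agilent Feature Extraction 11.0.1.1, per the file headers. They also hold, per the file headers, a processed intensity that the software corrected for background, spatial trend and dye. In the value table the authors deposited, each value is a linear ratio of the background-subtracted median signal to the median of its column, with medians of 1, no centring across samples and each sample's own channel. This was found by setting it against the scanner values, of which 100% matched within 1e-06.

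From the deposited intensities, log2 values were computed here with limma 3.58.1 in R 4.3.3: normexp (offset 50), loess within arrays and Aquantile between arrays. Control spots and outlier-flagged spots were dropped, and a probe's spots were averaged. Probes well above background in at least 4 of 8 samples and with a value in all 8 were tested, 18399 of 22288 kept (3889 had outlier spots). Each sample's genotype and dye came from its labels. The test was lmFit and eBayes with a dye term and the array as random block (duplicateCorrelation, estimated at 0.81), adjusted by Benjamini-Hochberg over all probes, and was tested on simulated data. Samples are separate mice by their labels. Probe accessions matched a RefSeq table of assembly GRCm38.p6 for 80 of the 95 members, all with the same symbol.

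The members, lists and tests were chosen with earlier results of these data known. Values in every sample are given for probes at an unadjusted p under 0.05, with the highest or lowest mean of their complex, the brightest of 11 core subunits, or of a gene whose probes lie over 1 log2 unit apart. Up to 4 genes of each other list, by unadjusted p, could be named. Polr2c, Polr3c, Med10, Med7, Med26, Gtf3c5 and further genes were named after their values were seen. The values of 1 member gene are not reported here, though it is counted among the members.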

Additional observations from a re-analysis of the deposited data

Results flagged for a closer look

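In the samples labelled heterozygous, Med12 (probe A_52_P197666) had 1 sample apart from the others, replicate 3 at 9.648, where the other 3 lay between 9.431 and 9.459. The gap was 0.872 of the group's range, above the critical value of Dixon's test for 4 samples. All 4 samples were below the wildtype values of 9.85 to 10.96. Of 52 groups examined this was the only 1 to stand out, and chance flags about 1 in 20 such groups.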

How the results depend on the processing

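No member was called at an adjusted p of 0.05 by limma under the alternatives run, apart from the 2 without an array block. With dye and no array block, limma called 2 members, Polr1e A_51_P209302 (−1.27, adjusted p = 0.0206) and Med30 (0.84, adjusted p = 0.0495), and 529 of all probes. Over its 27 alternatives Polr1e A_51_P209302 stayed between −1.78 and −1.10, with adjusted p from 0.0206 to 0.999. The replicate numbers were not taken to pair the samples. The deviations of samples with the same number correlated at 0.0393, 0.255, 0.164 and 0.125 over 18399 probes. Some samples, but not all, correlated best with their own number. Because the mice of an array are correlated, this check cannot exclude that the numbers pair the mice. With the replicate block, 10 members reached an unadjusted p under 0.05 (11.4% of all probes did), and with the replicate block and no array block 14 did (26.1% of all), with 1 adjusted call, Polr1e A_51_P209302 (−1.27).

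With the scanner's processed signals the 6 members at an unadjusted p under 0.05 became 12, all lower in the samples labelled heterozygous. The median of all probes was shifted to −0.526 in these signals. The 12 were 17.6% of members, where 11.9% of all probes reached such a p. In brackets below is that share of all probes. The 6 became 1 with those signals after quantile normalization (3.85%), 3 with the spatial trend removed (5.21%) and 12 of 77 without the filter on dim probes (8.02%). They became 10 of 86 with outlier spots kept (8.78%), 13 without the array block (21%) and 3 when both channels of each array were averaged (6%). There were 2 when heterozygous replicates 1 and 2 were left out together (7.8%). Without the array of wildtype replicates 1 and 2 there were 17 (15.5%), and without that of wildtype replicates 3 and 4 there was 1 (8.48%). Leaving out single replicates gave 2 to 8 (5.77% to 7.17%). The cause of these shifts was not tested. The number of arrays and, for dim probes, the signal over background limit what could be seen.

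With the scanner's processed signals the median of all probes was −0.526, and the medians of the complexes were −0.469 (polymerase I), −0.460 (polymerase II), −0.842 (polymerase III), −0.511 (shared) and −0.493 (Mediator). Relative to that shift they were 0.057, 0.066, −0.316, 0.015 and 0.033. In the same signals, relative to the shift, Polr1e A_51_P209302 stood at −1.25, Med30 at 0.56, Polr3a at −0.47, Med12 at −0.51 and Med23 at −0.47. After quantile normalization of those signals the medians of polymerase III and of the shared subunits were −0.361 and 0.00565. The medians of polymerases I and II were −0.131 and −0.0723 without the array of heterozygous replicates 1 and 2. They were −0.0971 and −0.0765 when wildtype replicates 3 and 4 were left out. The medians of polymerase I and of Mediator were −0.370 and 0.207 without the array of heterozygous replicates 3 and 4. Leaving out single replicates gave medians of −0.0805 to −0.00051 for polymerase I, −0.0521 to 0.0285 for polymerase II, −0.158 to −0.0984 for polymerase III, 0.137 to 0.176 for the shared subunits and −0.0154 to 0.0618 for Mediator.

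The alternatives were followed for 20 tested probes named by rule, and among these the sign turned 51 times. Probes with outlier spots and those named after their values were seen were not followed. With the scanner's processed signals this held for Med13l (−0.648), Med14 (−0.550), Med16 (−0.623), Polr1a A_51_P236197 (−0.469), Polr1b (−0.162), Polr1e A_55_P2159949 (−0.271), Polr2e A_52_P362033 (−0.11) and Polr2m (−0.271). After their quantile normalization it held for Med13l (−0.0604), Med14 (−0.0103), Med16 (−0.0788), Polr2i (0.119) and Polr3b (0.154). Quantile normalization of the signals corrected here turned Polr1b (−0.00134), the deposited value table Polr2m (−0.0404), and removal of the spatial trend Med14 (−0.0569), Polr1a (−0.0343) and Polr3b (0.0815). Over the settings that left out a single replicate, the probes that turned in at least 1 of them ran from −0.0296 to 0.173 for Med16, −0.0276 to 0.0708 for Polr1a A_51_P236197, −0.0805 to 0.0906 for Polr1b, −0.0232 to 0.0632 for Polr1e A_55_P2159949, −0.0521 to 0.127 for Polr2m and −0.0599 to 0.0416 for Polr3b. Leaving out the array of heterozygous replicates 1 and 2 turned Med16 (−0.0489), Polr1e A_55_P2159949 (−0.131) and Polr3b (0.0306), and leaving out that of heterozygous replicates 3 and 4 turned Med13l (−0.217), Polr1b (−0.602) and Polr2m (−0.00369). Without the array of wildtype replicates 1 and 2, Med16 stood at −0.216 and Polr2m at −0.176. Without that of wildtype replicates 3 and 4, Med13l stood at −0.128, Polr1a at 0.32 and −0.0971, Polr1b at −0.0267, Polr1e A_55_P2159949 at −0.127, Polr2a at 0.0307 and Polr3b at 0.138. Of the 20, no sign turned for Med1, Med12, Med23, Med30, Polr1e A_51_P209302, Polr2h, Polr2l or Polr3a.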
